A study of Mus musculus with 9 samples.

Results

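Ppara, its nuclear receptor relatives, its coactivators and a pair of hormones that it can induce were followed in mouse liver RNA. The 8 genes were chosen by name: the receptor genes Ppara, Ppard and Pparg, the partner receptor gene Rxra, the coactivator genes Ppargc1a and Ppargc1b, and the genes of the secreted proteins Fgf21 and Angptl4. All 8 were among the 54532 genes listed and among the 11852 tested, whose mean over the libraries was 0.5 FPKM (fragments per kilobase of exon, scaled to library depth) or more. The samples were 9 liver libraries in 3 groups of 3. They came from Cth knockout mice given 1% betaine in drinking water, Cth knockout mice on drinking water, and wild-type mice on drinking water. The product of Cth, cystathionine gamma-lyase, forms cysteine in the transsulfuration pathway, and betaine donates a methyl group to homocysteine. The labels do not say which cells lack Cth, nor give strain, sex, age, feeding state, time of day or batch. Nor do they state that each replicate is its own animal. The p-values then speak only of the spread among these samples, which may be technical in part or, outside wild type, in whole.

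PPARα is the nuclear receptor that senses fatty acids in hepatocytes and, paired with RXRα, switches on fatty acid oxidation and ketone body synthesis during fasting. PPARδ is expressed in many tissues, and PPARγ is best known as the driver of adipocyte differentiation and fat storage. PGC-1α and PGC-1β are coactivators that dock on these and other receptors. FGF21 is a hormone that the liver secretes during fasting and under amino acid stress, and it signals through FGF receptors with the co-receptor β-Klotho. ANGPTL4 is secreted by liver and adipose tissue and inhibits lipoprotein lipase, the enzyme that releases fatty acids from circulating triglyceride.

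Cth itself was 0.319, 0.309 and 0.781 FPKM with betaine and 0.583, 0.278 and 0.770 FPKM in the knockouts, against 285, 257 and 219 FPKM in wild type, in accordance with the genotype labels. Read totals recovered from the FPKM ran from 15147766 to 17490099 per library, and 3 reads on 1 kb of exon correspond to 0.162 to 0.223 FPKM, counting error alone. Wild-type replicate 3 stood apart: it had 26.6 FPKM of Xist and 0 reads of Ddx3y, Eif2s3y, Kdm5d and Uty, where the other 8 libraries had at most 0.0124 FPKM of Xist and 1509 to 2386 reads of those Y-linked genes. Values without it stand beside the results that it moves. Hepatocyte markers fitted the tissue label, with Alb at 18958 to 51130 FPKM. The summed level of the 11 hepatocyte markers found was 37567 to 51618 FPKM with betaine, 45778 to 58568 FPKM in the knockouts and 52956 to 70065 FPKM in wild type. Of these 11, 2 rose (Serpina1c and Apoa1) and 3 fell (Apob, Cps1 and Hnf4a) in the knockouts. That was 45.5% of the list against 25.6% of all tested genes. With betaine against wild type 0 rose and 1 fell (Hnf4a), 9.09% against 11.7%. The 6 muscle markers summed to at most 0.0647 FPKM, with Myh7 and Mb at 0. In bulk tissue, fewer cells of a type and less RNA per cell cannot be told apart.

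Markers of other cells differed between groups in part. The 8 adipocyte markers summed to 1331 to 1960 FPKM with betaine, 2480 to 3009 FPKM in the knockouts and 1154 to 2344 FPKM in wild type. Most of each sum came from Car3 and Pck1, which hepatocytes also express. Mean Pck1 was 285, 833 and 1135 FPKM in the same order. Of the 4 markers tested, 1 rose and 0 fell in the knockouts, 25% against 25.6% of all tested genes. With betaine against wild type 1 rose and 1 fell (Pck1), 50% against 11.7%. The gene that rose was Car3, which hepatocytes also express, at 1436 ± 188 FPKM with betaine and 1872 ± 255 FPKM in the knockouts, against 692 ± 290 FPKM in wild type (adjusted p = 0.0304 and 0.00762). Adipoq, Plin1 and Lep, by contrast, reached at most 0.535, 0.174 and 0.0805 FPKM. The 9 sinusoidal endothelial markers summed to 38.1 to 54.8 FPKM with betaine, 49.1 to 63.3 FPKM in the knockouts and 54.4 to 96.6 FPKM in wild type. The wild-type median was 59.1 FPKM, within the knockout range, so 1 library set the top of the wild-type range. Kdr and Clec4g reached their wild-type maximum in replicate 3, at 6.40 and 17.0 FPKM. With all libraries, 8 of the 9 markers were negative for knockout minus wild type, with a median log2 fold change of -0.56. For betaine minus wild type 9 of 9 were negative, with a median of -0.69. In these 2 comparisons 1 each was called, Kdr in the knockouts (adjusted p = 0.0436, or 0.108 without wild-type replicate 3) and Clec4g with betaine (adjusted p = 0.0490, or 0.0919 without it). That was 11.1% of the list each time, against 25.6% and 11.7% of all tested genes. The 10 Kupffer cell markers summed to 140 to 313 FPKM with betaine, 170 to 219 FPKM in the knockouts and 224 to 273 FPKM in wild type, and 8 of 10 were negative in both comparisons with wild type. Limma called 0 of the Kupffer, stellate, cholangiocyte and lymphocyte markers, where 0 to 3 per list had an unadjusted p under 0.05. The part of these cells in the results on the 8 genes was not tested.

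Of the 8 genes, 0 rose and 2 fell (Ppara and Rxra) in knockout against wild-type livers, where 25.6% of all tested genes were called, 12.8% as higher and 12.7% as lower. With betaine against wild type, 0 rose and 4 fell (Ppara, Rxra, Fgf21 and Angptl4), against a background of 11.7% called, 5.87% as higher and 5.78% as lower. Without wild-type replicate 3, 1 rose (Ppard) and 2 fell (Ppara and Rxra) in that comparison, where 1421 of all tested genes were called. With betaine against knockout, limma called 0 of the 8 genes, and 3 (Ppara, Fgf21 and Angptl4) had an unadjusted p under 0.05. In that comparison only 5 of all tested genes were called, 0.0422%, while 2672 had an unadjusted p under 0.05. The median log2 fold change of the 8 genes was 0.054 for knockout minus wild type, 0.13 for betaine minus knockout and -0.58 for betaine minus wild type. Over all tested genes it was 0.015, -0.0016 and 0.0050 in the same order. The 3 comparisons share libraries in pairs and are not independent of each other. Changes are read as log2(FPKM + 0.5), a scale that understates the change of low genes.

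**Figure D1:**
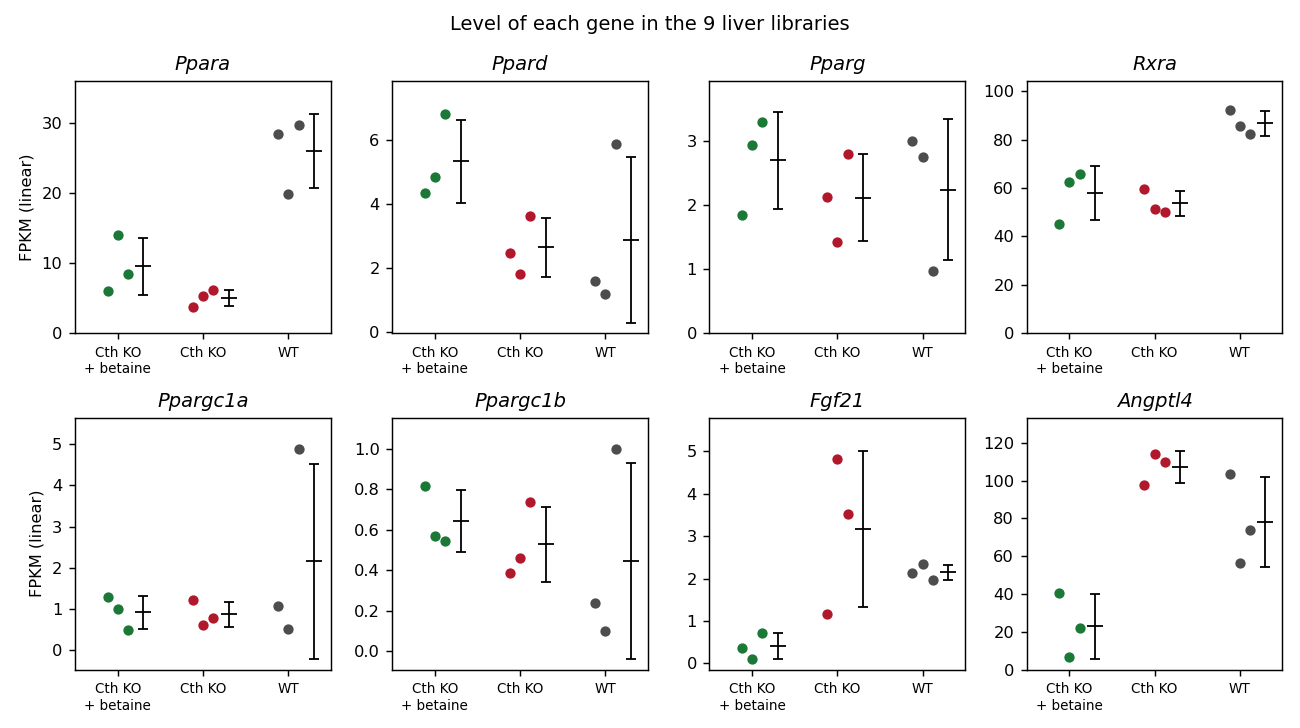
Level of each of the 8 genes in FPKM (vertical axes, 1 panel per gene, with scales as labelled) in betaine-supplemented knockout, knockout and wild-type livers. Points are single libraries, with replicates 1 to 3 from left to right in each group, and bars show mean ± SD. Ppara and Rxra of wild type sit above every other library, and Fgf21 and Angptl4 are lowest in the betaine group.

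The promoters of Ppara, Rxra and Fgf21 are shown because these are the genes called lower matched in the RefSeq promoter table used here (GRCm38.p6). Each holds 250 bases before to 50 bases after a start site, read 5′ to 3′ on the gene's strand, and capitals mark the motif matches found on either strand. The Ppara window is chr15:85735526-85735825 on the plus strand. The Rxra window is chr2:27709042-27709341 on the plus strand, from the second of its 2 listed starts, shown for its AGGTCA matches. The Fgf21 window is chr7:45615441-45615740 on the minus strand.
Ppara: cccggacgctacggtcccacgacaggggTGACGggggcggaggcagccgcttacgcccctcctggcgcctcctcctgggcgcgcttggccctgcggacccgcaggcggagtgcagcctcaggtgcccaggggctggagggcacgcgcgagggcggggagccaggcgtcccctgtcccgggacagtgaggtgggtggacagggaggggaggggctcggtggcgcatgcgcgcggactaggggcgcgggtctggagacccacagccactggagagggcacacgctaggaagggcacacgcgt
Rxra: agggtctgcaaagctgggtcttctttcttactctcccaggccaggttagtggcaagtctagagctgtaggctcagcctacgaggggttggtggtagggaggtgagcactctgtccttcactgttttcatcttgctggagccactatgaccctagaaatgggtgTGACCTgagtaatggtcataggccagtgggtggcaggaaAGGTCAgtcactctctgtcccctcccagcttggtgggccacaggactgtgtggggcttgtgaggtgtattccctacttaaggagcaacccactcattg
Fgf21: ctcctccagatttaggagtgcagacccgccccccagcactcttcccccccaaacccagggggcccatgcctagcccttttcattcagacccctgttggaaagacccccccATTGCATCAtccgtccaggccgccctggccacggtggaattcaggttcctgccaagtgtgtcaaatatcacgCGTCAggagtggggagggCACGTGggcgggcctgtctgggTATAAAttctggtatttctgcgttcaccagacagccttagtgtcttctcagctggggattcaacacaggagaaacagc

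Both strands were searched for AGGTCA (the hexamer that nuclear receptors bind), its repeat AGGTCANAGGTCA (the form PPAR with RXR binds), CACGTG (the E-box), TGATGCAAT (the amino acid response element bound by ATF4), TTATGTAA (the D-box), TGACGTCA and its part TGACG (cAMP response element), and TATAAA. The Fgf21 promoter held TGATGCAAT at position -140, which 63 of 32851 promoters, 0.192%, also hold. It further held TGACG at -68 (20.8% of promoters), CACGTG at -50 (7.15%) and TATAAA at -28 (13.6%). The second Rxra promoter held AGGTCA at -87 and -48 (16.3% of promoters hold at least 1), and the first held 0 matches of it. Which of these starts the livers used was not tested. The Ppara promoter held a single TGACG at -222, and its 30 CpG compare with a median of 7 over all promoters and 9 in Fgf21. Ppard had 27 CpG and Ppargc1a 5, the first and second Rxra windows 55 and 1, and the Pparg windows 44, 13 and 2. The full repeat AGGTCANAGGTCA occurred in 13 promoters, 0.0396%, and in none of the 9 windows of the 6 genes found, which are Ppara, Ppard, Pparg, Rxra, Ppargc1a and Fgf21. These matches describe the letters in these windows, and no binding was measured.

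Ppara, on chromosome 15 at 85734983 to 85802819 (mm10, plus strand), had the largest log2 fold change of the 8 genes between knockout and wild type. It was 3.78, 5.22 and 6.07 FPKM in the knockouts, against 28.4, 19.9 and 29.6 FPKM in wild type. The groups did not overlap, as held with the knockouts lower for 23.2% of all tested genes. The means were 5.02 ± 1.16 and 26.0 ± 5.31 FPKM (SD, n = 3 libraries each), a level 5.17-fold lower in the knockouts. The log2 fold change was -2.26 ± 0.29 (SE), with an adjusted p = 0.00546 by limma. Ppara passed the threshold with each of the 9 libraries left out in turn, with log2 fold changes of -2.44 to -2.09. Without wild-type replicate 3 it was -2.16.

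With betaine, Ppara was 6.05, 14.0 and 8.45 FPKM, so that only the lowest betaine library overlapped the knockouts. The mean of 9.50 ± 4.07 FPKM was 1.89 times the knockout mean, with a log2 fold change of 0.80 and adjusted p = 0.158. Against wild type the betaine group was 2.74-fold lower, with a log2 fold change of -1.46 and adjusted p = 0.0177. These groups did not overlap either, as held with the betaine group lower for 16.2% of all tested genes. Leaving out betaine replicate 3 ended that call (adjusted p = 0.0669), as did leaving out wild-type replicate 1 (adjusted p = 0.0574) and a fit of those 2 groups alone (adjusted p = 0.0516). Reads behind these values were 391, 992 and 521 with betaine, 196, 284 and 346 in the knockouts, and 1718, 1164 and 2059 in wild type.

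Ppard, on chromosome 17 at 28232700 to 28301474, was highest in the betaine group and split within wild type. It was 4.35, 4.83 and 6.79 FPKM with betaine, 2.48, 1.81 and 3.64 FPKM in the knockouts, and 1.61, 1.19 and 5.86 FPKM in wild type, where replicate 3 gave the high value. The betaine and knockout groups did not overlap, as was the case with the betaine group higher for 15.6% of all tested genes. The log2 fold change was 0.91 for betaine minus knockout (adjusted p = 0.267), 0.11 between knockouts and wild type (adjusted p = 0.875) and 1.02 for betaine minus wild type (adjusted p = 0.169). Without wild-type replicate 3, betaine minus wild type was 1.60 and passed (adjusted p = 0.00909), and knockout minus wild type was 0.69 (adjusted p = 0.0872).

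Pparg, on chromosome 6 at 115360951 to 115490399, differed little between group means. It was 1.85, 2.94 and 3.31 FPKM with betaine, 2.13, 1.43 and 2.80 FPKM in the knockouts, and 3.01, 2.75 and 0.974 FPKM in wild type. Here wild-type replicate 3 was the lowest of the 9 libraries, and all groups overlapped. The log2 fold changes were -0.0011 ± 0.35 for knockout minus wild type, 0.29 for betaine minus knockout and 0.29 for betaine minus wild type, with adjusted p = 0.999, 0.651 and 0.607. Leaving out wild-type replicate 3 gave -0.40 for the first and -0.11 for the last.

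Per length, the 3 PPAR genes together were 17.5 ± 4.84 FPKM with betaine, 9.79 ± 2.36 FPKM in the knockouts and 31.1 ± 6.54 FPKM in wild type. Ppara made up 49.4%, 64.3% and 45.6% of that sum with betaine and 45.1%, 61.7% and 48.6% in the knockouts, against 86.0%, 83.5% and 81.3% in wild type. Every wild-type share was above every other share, and the betaine and knockout shares overlapped. Ppard made up 31.4% ± 8.02, 26.7% ± 4.58 and 8.65% ± 6.43 in the same order, and Pparg 15.5% ± 2.18, 21.6% ± 4.28 and 7.77% ± 4.58. With 3 libraries against 3 an exact two-sided permutation test cannot go below 0.10, so the shares are given as a description.

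**Figure D2:**
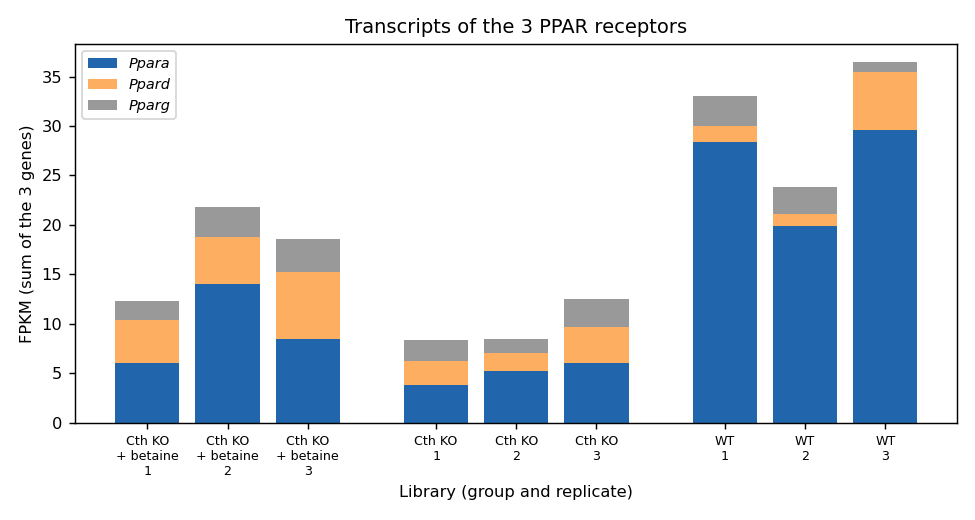
Stacked FPKM of Ppara, Ppard and Pparg in each of the 9 libraries (vertical axis, FPKM), with betaine-supplemented knockouts left, knockouts in the middle and wild type right. The Ppara segment is the tallest part of every bar and takes 81.3% to 86.0% of the wild-type bars.

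Rxra, on chromosome 2 at 27676440 to 27762957, encodes an RXR, the partner that PPARs need to bind DNA, and its level per length was far above theirs. It was 59.5, 51.4 and 50.2 FPKM in the knockouts, against 92.5, 85.8 and 82.3 FPKM in wild type. Every knockout library was below every wild-type library. The log2 fold change was -0.69 ± 0.16 (SE; adjusted p = 0.0159). Leaving out knockout replicate 2, knockout replicate 3 or wild-type replicate 1 ended the call (adjusted p = 0.0650, 0.0556 and 0.0526), at log2 fold changes of -0.66, -0.65 and -0.65.

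With betaine, Rxra was 45.2, 62.5 and 66.0 FPKM, with 1 library below and 2 above all knockouts. The log2 fold change was 0.09 against the knockouts (adjusted p = 0.761) and -0.60 against wild type (adjusted p = 0.0438). The call against wild type held without betaine replicate 2 and without wild-type replicate 3 (adjusted p = 0.0487 and 0.0486), and leaving out any other library gave adjusted p = 0.0621 to 0.118. Among 11 tested nuclear receptors that pair with RXR or belong to its family, 1 rose and 0 fell in the knockouts: Nr1h3, the oxysterol receptor LXRα, at 51.7 ± 2.56 against 38.2 ± 3.66 FPKM (adjusted p = 0.0465). That is 9.09% of the list against 25.6% of all tested genes, and the Nr1h3 call held in 2 of the 9 fits that left out 1 library (adjusted p up to 0.133) and in 6 of all 21 alternatives. Without wild-type replicate 3 it was lost (adjusted p = 0.0968). Between the betaine group and wild type 1 rose and 0 fell, 9.09% of the list against 11.7% of all tested genes. The gene that rose was Rxrg, another RXR, at 2.90 ± 0.0746 with betaine, 1.37 ± 0.438 in the knockouts and 1.40 ± 0.120 FPKM in wild type (adjusted p = 0.0191 against wild type), called in 5 of the 9 leave-one-out fits.

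**Figure D3:**
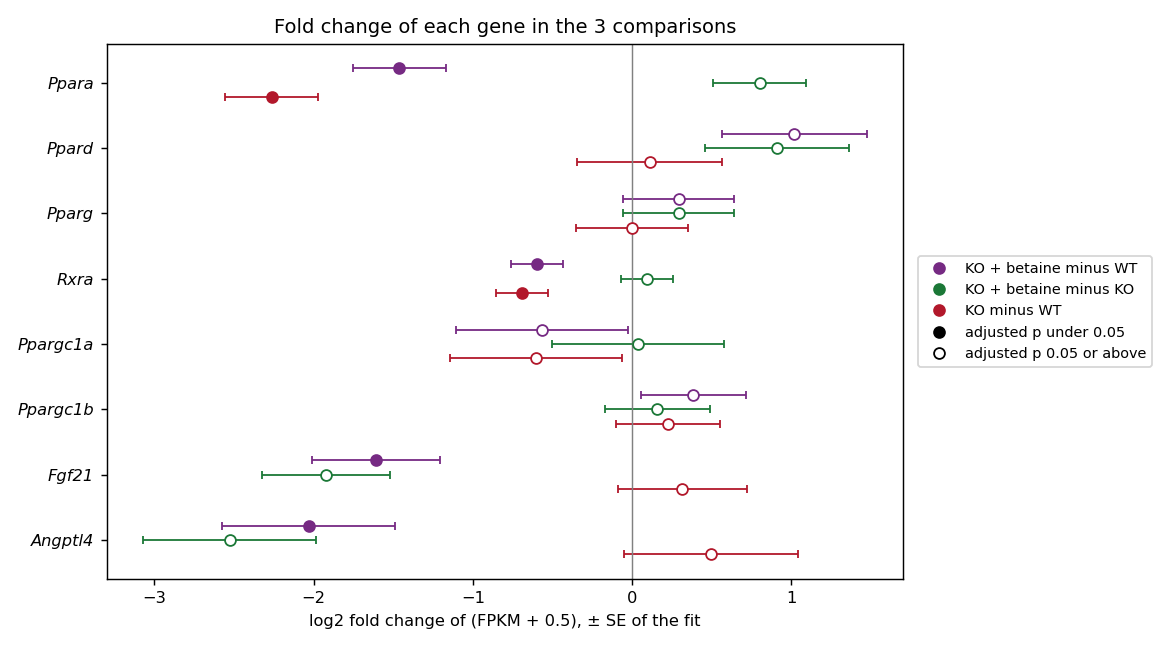
Log2 fold change with SE of each of the 8 genes (horizontal axis, log2 of FPKM + 0.5) in the 3 comparisons. Filled points passed an adjusted p of 0.05. Ppara and Rxra are filled in both comparisons with wild type, and Fgf21 and Angptl4 in betaine minus wild type.

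Both PGC-1 coactivator genes were low in these livers and varied more within wild type than between groups. Ppargc1a, on chromosome 5 at 51454250 to 51567726, was 1.29, 0.991 and 0.491 FPKM with betaine, 1.21, 0.609 and 0.784 FPKM in the knockouts, and 1.08, 0.506 and 4.87 FPKM in wild type. Wild-type replicate 3, with 582 reads, was above all other libraries, and the rest overlapped. The log2 fold changes were -0.60 ± 0.54 between knockouts and wild type and -0.56 for betaine minus wild type (adjusted p = 0.430 and 0.516). Without that library they were 0.10 and 0.13. Betaine minus knockout was 0.04 (adjusted p = 0.975).

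Ppargc1b, on chromosome 18 at 61298136 to 61400431, encodes PGC-1β, which is also a coactivator of lipogenic and oxidative genes. It was 0.818, 0.568 and 0.546 FPKM with betaine, 0.389, 0.459 and 0.740 FPKM in the knockouts, and 0.239, 0.0984 and 0.998 FPKM in wild type, from 6 to 72 reads a library. The wild-type libraries spanned the range of all 9, with replicate 3 at the top. The log2 fold changes of 0.23, 0.16 and 0.38 for knockout minus wild type, betaine minus knockout and betaine minus wild type had adjusted p = 0.633, 0.802 and 0.459. Ppard and both coactivator genes shared wild-type replicate 3 as the wild-type maximum. That library also differed from the others in its sex-linked transcripts, and the part of sex in these levels was not tested.

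Of 21 coactivators and corepressors of PPARα and PGC-1, 1 rose and 8 fell in the knockouts, 42.9% of the list against 25.6% of all tested genes, with a median log2 fold change of -0.49. Ncoa2, a steroid receptor coactivator, was 1.86 ± 0.0251 FPKM in the knockouts against 3.61 ± 0.194 FPKM in wild type (adjusted p = 0.00614). Ep300, a histone acetyltransferase, was 1.82 ± 0.207 against 3.19 ± 0.113 FPKM (adjusted p = 0.00792), and Hcfc1, a chromatin adaptor, 3.21 ± 0.136 against 5.87 ± 1.10 FPKM (adjusted p = 0.00958). The gene that rose was Hdac3, the corepressor deacetylase, at 8.17 ± 0.315 against 5.71 ± 0.218 FPKM (adjusted p = 0.0137).

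The coregulator genes are long, with a median exon length of 8576 bases against 3798 over all tested genes. With the trend of fold change on exon length removed, 1 rose and 2 fell, where 2195 of 11849 tested genes were called. With each library rescaled to the same sum (TPM) 0 rose and 14 fell, where 4218 of 11852 were called, 3634 of them lower. Without wild-type replicate 3, 1 rose and 8 fell. In the betaine group, 1 rose (Hdac3) and 4 fell relative to wild type, or 1 and 5 without wild-type replicate 3. With all libraries that was 23.8% of the list against 11.7% of all tested genes. Among those that fell were Ep300 with a log2 fold change of -0.77 (adjusted p = 0.00855), Ncoa3 and Ncoa2. Leaving out 1 library kept the betaine call of Ep300 in 9 of 9 fits, of Hdac3 and Ncoa3 in 3 each and of Ncoa2 in 1, and Ncoa2 was lost without wild-type replicate 3 (adjusted p = 0.0632). With the length trend removed the betaine count was 1 up and 1 down, where 1152 of 11849 tested genes were called.

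Of 13 tested transcription factors and mitochondrial regulators that work with PGC-1, 0 rose and 5 fell in the knockouts. That was 38.5% of the list against 25.6% of all tested genes, and the median log2 fold change of the list was -0.43. Gabpa, a subunit of the mitochondrial biogenesis factor NRF-2, was 4.41 ± 0.579 against 8.07 ± 0.497 FPKM (adjusted p = 0.00843). Nr3c1, the glucocorticoid receptor, was 6.58 ± 0.177 against 11.3 ± 0.649 FPKM (adjusted p = 0.00920). Hnf4a, a master hepatocyte factor, was 88.0 ± 7.61 FPKM with betaine and 109 ± 2.72 FPKM in the knockouts, against 174 ± 33.2 FPKM in wild type (adjusted p = 0.00861 and 0.0161). With the length trend removed 0 rose and 4 fell, and on the TPM scale 0 rose and 9 fell. The backgrounds of both are those given for the coregulators. Counts were 1 up and 7 down without wild-type replicate 3. Betaine livers had 1 that rose relative to wild type (Tfb1m, a mitochondrial transcription factor) and 3 that fell (Hnf4a, Yy1 and Foxo1). That was 30.8% of the list against 11.7% of all tested genes. Those calls held in 1 of 9 leave-one-out fits for Tfb1m, 9 for Hnf4a, 5 for Yy1 and 3 for Foxo1.

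Fgf21, on chromosome 7 at 45613886 to 45615490, separated the betaine group from both others. It was 0.375, 0.114 and 0.720 FPKM with betaine, 1.17, 4.82 and 3.53 FPKM in the knockouts, and 2.14, 2.34 and 1.98 FPKM in wild type. All betaine libraries were below all other libraries, while the knockouts lay on both sides of wild type. The reads behind these values were 6, 2 and 11 with betaine, 15, 65 and 50 in the knockouts and 32, 34 and 34 in wild type, so the betaine levels rest on 19 reads in all. The ratio of means was 0.187 for betaine over wild type and 0.127 for betaine over knockout.

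Against wild type, Fgf21 fell with betaine by 1.61 on the log2 scale (adjusted p = 0.0362). The call held without knockout replicate 1 or 2 (adjusted p = 0.0168 and 0.0350), and leaving out any other library gave adjusted p = 0.0535 to 0.0916. Against the knockouts the log2 fold change was -1.92 ± 0.40 (unadjusted p = 0.000989, adjusted p = 0.0837). It passed without knockout replicate 1 (adjusted p = 0.0367) and on the TPM scale (-1.69, adjusted p = 0.0330). Knockout minus wild type was 0.32 ± 0.40 (adjusted p = 0.585), and -0.030 without knockout replicate 2.

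Of 12 tested receptors and regulators of FGF21, 0 rose and 2 fell in the knockouts, 16.7% of the list against 25.6% of all tested genes. Klb, which encodes β-Klotho, was 2.49, 2.29 and 2.85 FPKM in the knockouts, against 11.8, 8.64 and 7.56 FPKM in wild type, with no overlap (log2 fold change -1.67 ± 0.20, adjusted p = 0.00546). With betaine it was 3.20, 5.01 and 3.35 FPKM, also below every wild-type library (adjusted p = 0.0105). Bcl6, a repressor that acts on PPARα targets, was 2.65 ± 0.682 FPKM in the knockouts against 6.51 ± 3.19 FPKM in wild type (adjusted p = 0.0439). The Bcl6 groups overlapped, with wild-type replicate 3 at 3.12 FPKM and knockout replicate 2 at 3.44 FPKM. Its call held in 1 of 9 leave-one-out fits, the one without wild-type replicate 3 (log2 fold change -1.47, adjusted p = 0.00909, against -1.05 with all libraries). Fgfr4, the main hepatocyte FGF receptor, was 9.42 ± 1.20 FPKM with betaine against 14.6 ± 1.03 FPKM in wild type (adjusted p = 0.0187; called in 6 of 9 leave-one-out fits), and with Klb made 0 up and 2 down in that comparison. That was 16.7% of the list against 11.7% of all tested genes, and without wild-type replicate 3 the count was 0 and 3.

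Angptl4, on chromosome 17 at 33773750 to 33781830, followed the same order of groups at a much higher level. It was 40.8, 6.52 and 21.9 FPKM with betaine, 97.8, 114 and 110 FPKM in the knockouts, and 104, 56.6 and 74.1 FPKM in wild type. The betaine libraries lay below all others, and betaine replicate 2, with 427 reads, was the lowest. Knockout and wild type overlapped at wild-type replicate 1. The means were 23.1 ± 17.2, 107 ± 8.41 and 78.1 ± 23.7 FPKM with betaine, in the knockouts and in wild type, so the betaine mean was 4.65-fold lower than the knockout mean and 3.39-fold lower than the wild-type mean.

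Against wild type, Angptl4 fell with betaine by 2.03 on the log2 scale (adjusted p = 0.0465). The call held without betaine replicate 1 or 2 (adjusted p = 0.0261 and 0.0334), and leaving out any other library gave adjusted p = 0.0694 to 0.122. Against the knockouts the log2 fold change was -2.53 ± 0.55 (unadjusted p = 0.00134, adjusted p = 0.0877). It passed without betaine replicate 1 (-3.10, adjusted p = 0.0243) and on the TPM scale (-2.17, adjusted p = 0.0334), and was -1.82 without betaine replicate 2. Knockout minus wild type was 0.50 ± 0.55 (adjusted p = 0.523). Groups with betaine lower than the knockouts and no overlap, as for Fgf21 and Angptl4, made up 14.7% of all tested genes.

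**Figure D4:**
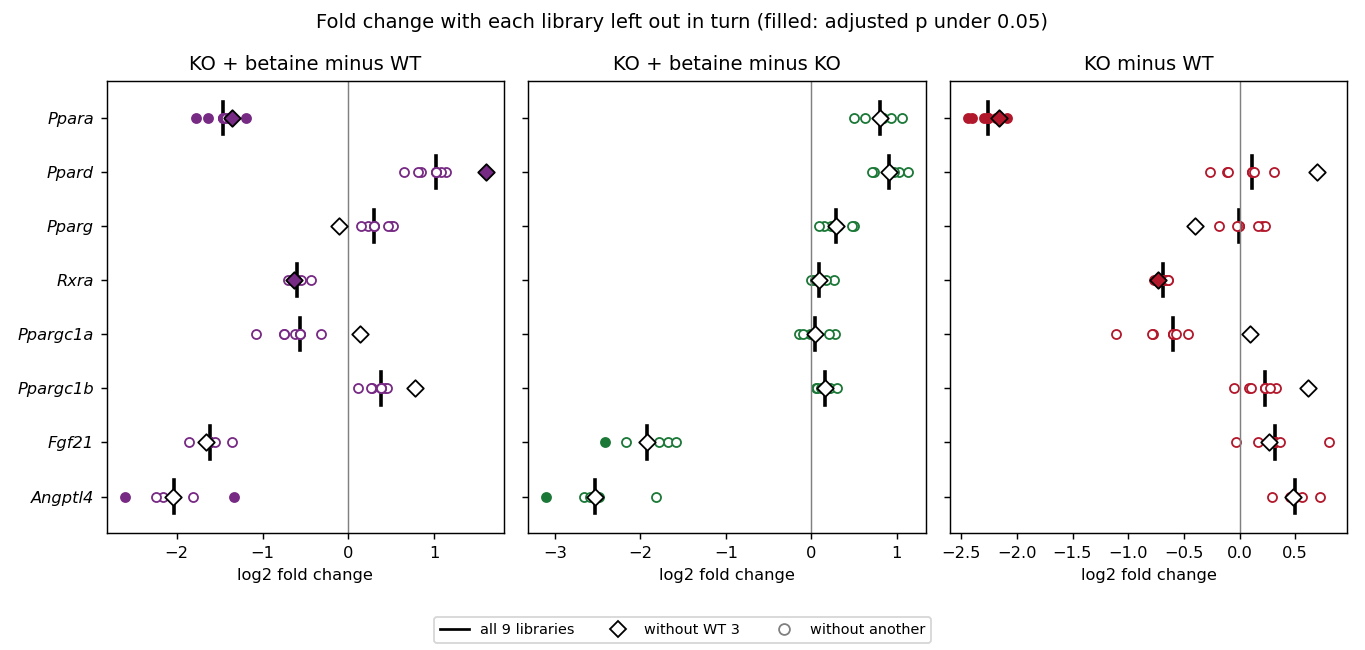
Log2 fold change of each of the 8 genes (horizontal axes) with each library left out in turn, in the 3 comparisons. Lines mark the value with all 9 libraries, diamonds the value without wild-type replicate 3, and filled marks an adjusted p under 0.05. Ppara in knockout minus wild type is filled throughout, and the diamonds of Ppard, Ppargc1a and Ppargc1b lie to the right of the lines in both comparisons with wild type.

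Of 14 genes for lipoprotein lipase, its inhibitors and its processing, 2 rose and 3 fell in the knockouts, 35.7% of the list against 25.6% of all tested genes. Furin and Pcsk6, proprotein convertases that cleave lipases and angiopoietin-like proteins, fell by 0.98 and 0.91 on the log2 scale (adjusted p = 0.00612 and 0.00607). Pcsk5, a further convertase, also fell (log2 fold change -0.89, adjusted p = 0.0108). Lmf1, the chaperone that matures lipoprotein lipase, rose to 5.07 ± 0.586 FPKM in the knockouts, against 2.60 ± 0.352 FPKM in wild type (adjusted p = 0.0108). Relative to wild type, 0 rose and 1 fell with betaine, Pcsk6 by 0.51 on the log2 scale (adjusted p = 0.0444; called in 2 of 9 leave-one-out fits). That was 7.14% of the list against 11.7% of all tested genes, and without wild-type replicate 3 the count was 0 and 2. With the length trend removed the knockout count was 1 up and 2 down, where 2195 of 11849 tested genes were called.

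Other liver secreted factors and fasting genes gave mixed counts. Of 15 tested secreted factors that respond to nutrition, 2 rose and 3 fell in the knockouts. That was 33.3% of the list against 25.6% of all tested genes. Gpld1, a phospholipase released into plasma, was 16.2, 9.92 and 12.7 FPKM in the knockouts against 43.6, 36.6 and 42.5 FPKM in wild type, with no overlap (log2 fold change -1.65, adjusted p = 0.00567). With betaine Gpld1 was 23.5, 42.8 and 31.1 FPKM, above every knockout library and overlapping wild type. Limma gave adjusted p = 0.0758 against the knockouts and 0.317 against wild type. Enho, which encodes adropin, was 8.59 ± 3.60 FPKM with betaine and 12.9 ± 3.57 FPKM in the knockouts, against 39.3 ± 9.56 FPKM in wild type (adjusted p = 0.00840 and 0.0125). Relative to wild type, 1 rose with betaine (Lect2) and 2 fell (Enho and Selenop). That was 20% of the list against 11.7% of all tested genes, and without wild-type replicate 3 the count was 2 up and 1 down. The Enho call held in 9 of 9 leave-one-out fits, that of Lect2 in 1 (adjusted p up to 0.137) and that of Selenop in 0 (adjusted p = 0.0606 to 0.125).

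Of 20 fasting-responsive transcription and gluconeogenic genes, 0 rose and 6 fell in the knockouts. That was 30% of the list against 25.6% of all tested genes, and the median log2 fold change of the list was -0.74. Ppp1r3c, a glycogen-targeting phosphatase subunit, fell by 1.62 on the log2 scale (adjusted p = 0.00546), and the FOXO factor genes Foxo1 and Foxo3 also fell (adjusted p = 0.0415 and 0.0245). Foxo1 was 4.73, 4.27 and 13.0 FPKM and Foxo3 7.15, 5.74 and 13.9 FPKM in wild type, so wild-type replicate 3 was the highest for both. Without it the log2 fold change was -0.61 for Foxo1 (adjusted p = 0.0165), against -1.09 with all libraries, and -0.76 for Foxo3 (adjusted p = 0.0316), against -1.12. The calls held in 3 and 7 of 9 leave-one-out fits. With the length trend removed 0 rose and 2 fell, and on the TPM scale 0 rose and 11 fell. The backgrounds of both are those given for the coregulators. The count was 1 up and 6 down without wild-type replicate 3. In the betaine group 0 rose and 4 fell relative to wild type, among them Txnip, an inhibitor of glucose uptake, and Foxo1. That was 20% of the list against 11.7% of all tested genes, and without wild-type replicate 3 the count was 0 and 6. The Txnip call held in 7 of 9 leave-one-out fits. Foxo1 was -1.37 for betaine minus wild type and -0.89 without wild-type replicate 3 (adjusted p = 0.0338 and 0.00671). Pck1, the gluconeogenic enzyme that fasting induces, was 301, 104 and 450 FPKM with betaine, 870, 791 and 838 FPKM in the knockouts, and 1320, 568 and 1516 FPKM in wild type. All betaine libraries were below all others, as for Fgf21 and Angptl4, and betaine minus wild type was -2.11 ± 0.53 (adjusted p = 0.0366). That call held in 3 of 9 leave-one-out fits, and without wild-type replicate 3 it was lost (-1.84, adjusted p = 0.0807). Of 14 tested clock genes 0 rose and 3 fell in the knockouts (Nfil3, Clock and Arntl, or 0 and 1 without the length trend). That was 21.4% of the list against 25.6% of all tested genes. Those calls held in 9, 4 and 5 of 9 leave-one-out fits, and Arntl was lost without wild-type replicate 3 (adjusted p = 0.0656). Of the same genes 2 rose and 4 fell with betaine against wild type, 42.9% of the list against 11.7% of all tested genes. Among those that fell was Per1, at 0.179, 0.134 and 1.22 FPKM with betaine against 2.55, 1.92 and 7.43 FPKM in wild type, with no overlap (log2 fold change -2.10, adjusted p = 0.0319). Without wild-type replicate 3, the highest, it was -1.59 (adjusted p = 0.0440), and the call held in 5 of 9 leave-one-out fits. The part of feeding state and time of day in the levels of the 8 genes was not tested.

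Of 40 classical PPARα targets of rodent liver, all tested, 6 rose and 5 fell in the knockouts. That is 27.5%, near the 25.6% called of all tested genes, with a median log2 fold change of -0.027 against 0.015 over all tested genes. Cpt1a, the gate of mitochondrial fatty acid entry, was 43.6, 46.1 and 47.2 FPKM in the knockouts against 99.0, 80.7 and 79.0 FPKM in wild type (adjusted p = 0.00567), with no overlap. Fabp1, the liver fatty acid binding protein, was 5540, 6605 and 5217 FPKM in the knockouts against 1922, 2375 and 1492 FPKM in wild type (adjusted p = 0.00567), also with no overlap but in the other direction. Vnn1, a pantetheinase, rose with a log2 fold change of 1.21 (adjusted p = 0.0130), and the acyl-CoA thioesterase gene Acot4 fell by 1.11 on the log2 scale (adjusted p = 0.0135). Leaving out wild-type replicate 3 gave 7 up and 7 down.

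With betaine against wild type, 1 of the 40 targets rose and 4 fell, or 2 and 5 without wild-type replicate 3. With all libraries that was 12.5% of the list, near the 11.7% called of all tested genes. The one that rose was Cd36, a fatty acid transporter that PPARγ also drives, at 36.5, 29.4 and 24.6 FPKM with betaine, 11.2, 14.8 and 19.5 FPKM in the knockouts and 5.39, 4.79 and 10.04 FPKM in wild type (adjusted p = 0.00633). Its groups were ordered without overlap, and it also passed for knockout minus wild type (adjusted p = 0.0208; called in 5 of 9 leave-one-out fits). Cpt1a at 39.2 ± 2.75 FPKM, Acot4 and Acot1 were lower with betaine than in wild type (adjusted p = 0.00383, 0.0180 and 0.0260), called in 9, 6 and 5 of 9 leave-one-out fits, with Acot1 at adjusted p = 0.0509 without wild-type replicate 3. Acot1 and Acot4 have close paralogs, between which the counting may have divided reads. With betaine against knockout limma called 0 of the 40, and 8 had an unadjusted p under 0.05. None of the other lists had a gene called in that comparison, at a background of 0.0422%. Of 7 ketone body genes 0 were called in any comparison, with 0, 1 and 1 at an unadjusted p under 0.05. Of 7 tested PPARγ targets 1 rose (Cd36) and 0 fell in the knockouts, and 1 rose (Cd36) and 1 fell (Pck1) with betaine against wild type. That was 14.3% and 28.6% of the list, against 25.6% and 11.7% of all tested genes. Without wild-type replicate 3 the betaine count was 1 up and 0 down.

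**Figure D5:**
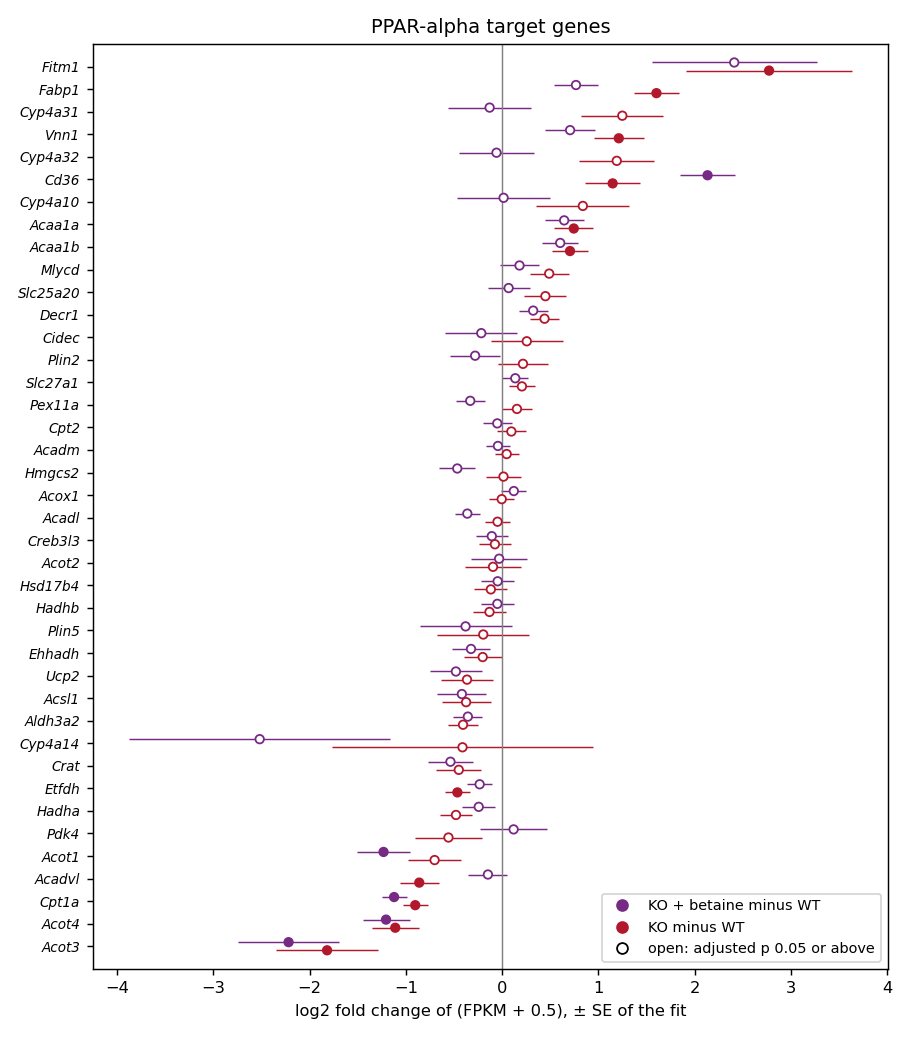
Log2 fold change ± SE of the 40 PPARα target genes (horizontal axis, log2 of FPKM + 0.5) for betaine minus wild type and knockout minus wild type, ordered by the knockout change, with filled points past an adjusted p of 0.05. For knockout minus wild type the filled genes lie on both sides of 0, 6 above and 5 below.

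The scale sets part of these counts. Library denominators behind the deposited FPKM lay within 0.00146 log2 of median-of-ratios size factors. The TPM scale moved the median of all tested genes to -0.32 between knockouts and wild type and to 0.30 between betaine group and knockouts. Against that shift, Ppara was -2.65 and Rxra -1.11 for knockout minus wild type, both still called. On the TPM scale 4218 of 11852 tested genes were called for knockout minus wild type, 584 higher and 3634 lower. Of the 40 PPARα targets 2 rose and 18 fell in the knockouts. With betaine against knockout 5 of them rose and 0 fell, where 95.6% of the 1673 genes called were higher. Other knockout counts on that scale were 0 up and 4 down for the RXR partners, 1 and 4 for the secreted factors, 1 and 3 for the lipoprotein lipase genes, 0 and 4 for the ketone body genes, 0 and 4 for the FGF21 axis, 0 and 8 for the clock genes, and 0 and 0 for the PPARγ targets. Between betaine group and knockouts the other lists then had 0 to 3 genes up and 0 down. Scaling to each library's own read total moved the median of betaine minus knockout to 0.16, where 69 genes were called, 81.2% of them higher. Wild-type replicate 3 moved further counts. Without it the knockout count was 1 up and 2 down for the clock genes and 1 and 3 for the lipoprotein lipase genes. For the secreted factors it was 3 and 3. For betaine minus knockout, where 273 genes were called, 1 rose and 0 fell in each of 4 lists. These were the PPARα targets, the PPARγ targets, the RXR partners and the secreted factors.

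By mean FPKM, Rxra, Angptl4 and Ppara held the first 3 places in every group. Rxra led in the betaine group and in wild type, and Angptl4 in the knockouts. In wild type the ranges of Rxra and Angptl4 overlapped, and Ppara stood apart from both. Below it Ppard, Pparg, Ppargc1a and Fgf21 overlapped, and Ppargc1b came last, overlapping Pparg and Ppargc1a. In the knockouts the first 2 were separate, and Ppara, Fgf21 and Ppard followed, with Ppara overlapping Fgf21. In the betaine group Rxra stood apart, Angptl4 and Ppara overlapped, and Fgf21 came last, overlapping Ppargc1b.

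Among 8838 protein-coding genes of at least 1 FPKM, the profiles most like that of Ppara over the 9 libraries were those of Tlk1 (Pearson r = 0.995), Ric1 (0.991), Arhgef11 (0.989), Man2a2 (0.989) and Slk (0.989). The most opposite were Chchd3 (-0.992), Tmem258 (-0.987) and Ndufv2 (-0.985). The closest profile was Col4a2 for Ppard (0.972), Ugdh for Pparg (0.948), Otud7b for Rxra (0.979), Upp2 for Ppargc1a (0.959), Ppp1r7 for Ppargc1b (0.948), Ric8b for Fgf21 (0.952) and Zscan21 for Angptl4 (0.981). These values describe 9 libraries that share 3 groups and a scaling, and so carry the group differences given above.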

How the data were processed

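Liver RNA of 9 mouse samples was sequenced as poly(A) libraries, in 3 groups of 3 taken from the labels. The authors deposited 1 FPKM value per gene and library and did not give raw counts in the files used here. The genome build mm10 and the programs featureCounts (1.5.0-p3), DESeq2 (1.16.1) and HISAT2 (2.0.5) are named per the submitters' processing notes, without their roles, and strand is not given in the sources used here.

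The 8 genes and the 20 gene lists were chosen with earlier results of these data known. Symbols matched 54409 of 54532 genes. Exon lengths and positions came from GENCODE M21 (GRCm38, the assembly of mm10). With them 98.4% to 98.6% of values worth 20 reads or fewer came within 0.05 of a whole read, at library denominators of 13479599 to 18481709 reads. No exon base of the 8 genes is shared with another annotated gene.

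Values were analysed as log2(FPKM + 0.5) of the deposited values. One limma 3.58.1 model (R 4.3.3; lmFit, eBayes with trend and robust) over all 9 libraries gave 3 contrasts, two-sided, adjusted by Benjamini-Hochberg over the 11852 genes whose mean was 0.5 FPKM or more, at a threshold of 0.05. The fit was also run on reads simulated around wild-type means with a common spread. These held no length trend and no deviating library, so that run cannot speak to either. Named are the 8 genes, Cth and, from each list and contrast, up to 4 called genes of smallest p (or values of up to 2), not all of which are reported here. The genes of nearest profile (log2 scale, Pearson) were the 5 highest and 3 lowest for Ppara and the highest for each other gene. Alternatives were other pseudocounts and filters, TPM, quantile and read-total scaling, removal of the trend on exon length, 2-group fits, eBayes without trend, a replicate block and leaving out each library. Preparation and figures used Python 3.11.15, numpy 2.4.6, pandas 2.3.3 and matplotlib 3.10.9.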

Additional observations from a re-analysis of the deposited data

How the results depend on the processing

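Genes called in knockout minus wild type numbered 3029, and 1865 with no filter, 1884 without wild-type replicate 3 and with the exon length trend removed, and 896 to 3231 with 1 library left out. For betaine minus knockout 5 were called, and 8 and 10 at pseudocounts of 0.1 and 1, 1 with no filter, 1673 on the TPM scale, 69 by own read totals, 35 in the 2-group fit, 0 without trend and robust, 210 without wild-type replicate 3 and with the length trend removed, and 0 to 878 with 1 library left out (878 without betaine replicate 1, 273 without wild-type replicate 3). For betaine minus wild type 1381 were called, and 531 with no filter, 353 in the 2-group fit and 351 to 1441 with 1 library left out. Deviations of same-numbered replicates had correlations of 0.0831, 0.0980 and 0.0487 in knockout and wild type, where different numbers gave -0.0874 to 0.000786. In the other 2 comparisons same numbers gave negative correlations. Such deviations are taken from means of only 3 libraries, so they cannot decide whether the numbers pair the samples. A replicate block gave 2210, 0 and 671 calls, with Rxra at -0.60 (adjusted p = 0.0928), Fgf21 at -1.61 (adjusted p = 0.0609) and Angptl4 at -2.03 (adjusted p = 0.0508) for betaine minus wild type. In that comparison Ppara was -1.46 in the 2-group fit (adjusted p = 0.0516). Rxra was -0.60 with no filter (adjusted p = 0.0975) and in the 2-group fit (0.107), -0.65 on the TPM scale (0.0600) and -0.54 by own totals (0.0636). Fgf21 was -1.61 with no filter (adjusted p = 0.0857). Angptl4 was -2.03 with no filter (adjusted p = 0.0981) and in the 2-group fit (0.116), and -2.09 without wild-type replicate 3 and with the length trend removed (0.0599). Without wild-type replicate 3 and with the length trend removed, betaine minus wild type was 1.74 for Ppard (adjusted p = 0.00669), -0.18 for Pparg and 0.24 for Ppargc1a, and knockout minus wild type was 0.93 for Ppard (adjusted p = 0.0422), 0.29 for Ppargc1a and -0.14 for Fgf21. Other turned directions were, for knockout minus wild type, Ppard at -0.24 and Fgf21 at -0.027 on the TPM scale, Pparg at 0.020 with a pseudocount of 0.1 and 0.056 with quantile scaling, and Fgf21 at -0.16 with the length trend removed. Betaine minus knockout for Ppargc1a was -0.053 with the length trend removed, with and without wild-type replicate 3. On the TPM scale Fgf21 and Angptl4 passed for betaine minus knockout, at -1.69 and -2.17. With 1 library left out, knockout minus wild type ranged from -0.77 to -0.65 for Rxra, -0.26 to 0.69 for Ppard, -0.40 to 0.23 for Pparg, -1.11 to 0.10 for Ppargc1a, -0.046 to 0.62 for Ppargc1b and -0.030 to 0.81 for Fgf21. Betaine minus knockout ranged from -0.0093 to 0.26 for Rxra, -0.15 to 0.28 for Ppargc1a, -2.41 to -1.58 for Fgf21 and -3.10 to -1.82 for Angptl4. Betaine minus wild type ranged from -1.77 to -1.20 for Ppara, 0.65 to 1.60 for Ppard, -0.11 to 0.52 for Pparg, -0.70 to -0.43 for Rxra, -1.08 to 0.13 for Ppargc1a, -1.85 to -1.36 for Fgf21 and -2.61 to -1.33 for Angptl4. The cause of these changes was not tested. Ppargc1b gave no value with a minimum mean of 1 FPKM. The 63 results of called list genes were recomputed 1322 times under the alternatives, of which 1028 kept their side of the threshold, 294 lost it and 0 turned. The 2 and 6 Fgf21 reads of betaine replicates 2 and 1 limit what can be said of its level there.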
